A study of Homo sapiens with 10 samples.

Results

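Dual specificity phosphatases remove phosphate from both the threonine and the tyrosine of the activation loop of MAP kinases. The 7 genes DUSP5, DUSP6, DUSP8, DUSP10, DUSP12, DUSP16 and DUSP23 were taken here as a group from an array study of the human colon cancer cell line SW620, which was derived from a lymph node metastasis. The group consists of all rows of the deposited value table whose only listed gene symbol is one of these 7, which gave 48 rows of the 65535 in the table and 7 of its 4727 gene symbols. DUSP5 had 7 rows, DUSP6 7, DUSP8 3, DUSP10 10, DUSP12 7, DUSP16 9 and DUSP23 5. DUSP10, DUSP12 and DUSP23 lie on chromosome 1, DUSP5 on chromosome 10, DUSP8 on chromosome 11, and DUSP6 and DUSP16 on chromosome 12.

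The study compared parental SW620 cells (4 arrays) with derivatives recovered from liver metastases (3 arrays) and from lung metastases (3 arrays) that the cells had formed in balb/c nude mice. The strain label balb/c stands on every sample, parental cells included, and all groups were grown in DMEM with 5% serum. All are the single line SW620, and the derivatives were selected in a host that lacks T cells. The sample titles call the replicates biological, but the labels do not say whether those of a derivative come from separate metastases. The p-values therefore reflect only how these samples vary, and how much of that is technical is not known. Biotin-labelled total RNA was read on Affymetrix HG1.0ST chips, and each row is a log2 expression value, taken here as 1 probe set for part of a gene. Rows with a listed gene (56949) were tested, and a call means an adjusted p under 0.05.

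MAP kinase signalling runs through the ERK branch, which growth factors and RAS drive, and through the stress branches of JNK and p38. MAP kinase phosphatases switch these kinases off, and several of them are themselves transcribed in response to the kinase they inactivate, which makes them feedback inhibitors. DUSP5 acts on ERK in the nucleus and DUSP6 on ERK in the cytoplasm, while DUSP8, DUSP10 and DUSP16 act mainly on JNK and p38. DUSP12 and DUSP23 are atypical members that lack the kinase-docking domain, and their relation to MAP kinases is less settled.

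The arrays carried a division that touches every lung result below. Parental array 4 lay on the same side of the first principal component (38.3% of the variance) as the 3 lung arrays, and parental arrays 1 to 3 lay on the other side with the 3 liver arrays. Parental array 4 correlated with the other parental arrays at 0.965 to 0.968 over all tested rows, against 0.986 to 0.988 among those 3, and with the lung arrays at 0.963 to 0.964. The labels name no batch. The 2 sides are called array sets, and a fit with the set as a term compares the lung arrays with parental array 4 alone and the liver arrays with parental arrays 1 to 3. The epithelial keratins KRT8 and KRT18 were in the top 1% of rows by brightness (percentiles 99.9 and 99.9), but some other colon epithelial markers were lower in the derivatives. Of 6 measured, by the mean of all rows 3 were called lower in each derivative: LGR5 (-0.81 in liver, -1.27 in lung), TSPAN8 (-1.12 and -0.43) and ELF3 (-0.51 and -0.25). By that measure 7.79% of all genes were called in liver and 30.1% in lung derivatives, 17.2% as lower in lung. By brightest row 1 of the 6 was called lower in liver and 2 in lung derivatives. F11R, another of the 6, gave 0.03 in liver and -0.03 in lung derivatives by the mean of all rows. Markers of other cell types were counted first by brightest row, for which 13.7% of all genes were called in lung and 2.12% in liver derivatives. Of 6 measured lung epithelial markers 3 were called higher in lung derivatives, and their mean level was 8.90 to 9.23 in parental arrays, with array 4 the highest, 9.11 to 9.23 in liver arrays and 9.51 to 9.64 in lung arrays. Of 5 hepatocyte markers 0 were called in liver derivatives and 2 in lung derivatives, with mean levels of 8.68 to 9.19 in parental, 8.71 to 8.74 in liver and 9.29 to 9.44 in lung arrays. Of 13 leukocyte markers 1 was called higher in liver and 2 in lung derivatives, of 7 stromal markers 2 were higher and 1 lower in lung and 1 lower in liver derivatives, and of 5 endothelial markers 1 was higher in lung derivatives. With the array set as a term 0 markers of these 5 lists were called in lung derivatives. A log2 scale has no 0, so absence of a marker cannot be read from it. The part of other cells in the results was not tested, and in such bulk samples a change in the share of cells and a change in RNA per cell cannot be told apart.

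Each gene is given by 2 values. The mean of all its rows uses every probe set of the gene and was tested over 4727 genes, and the brightest row is the row with the highest mean over the 10 arrays. Levels are log2 values and are compared only within a gene, since probe sets differ in how they bind.

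In lung derivatives the ERK phosphatases DUSP5 and DUSP6 and the JNK and p38 phosphatase DUSP16 were higher than in parental cells by the mean of all rows, and DUSP12 was lower. These are 4 of the 7 genes, and by the same rule 30.1% of all genes were called in this comparison (12.8% higher and 17.2% lower), so a call alone does not set the group apart. DUSP8, DUSP10 and DUSP23 were not called. In liver derivatives 0 of the 7 genes and 0 of the 48 rows were called with limma, against 7.79% of all genes and 2.20% of all rows, and 4 rows had an unadjusted p under 0.05, beside 12.0% of all rows. With the array set in the model 0 of the 7 genes was called in lung derivatives, where 5.73% of all genes were.

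**Figure D1:**
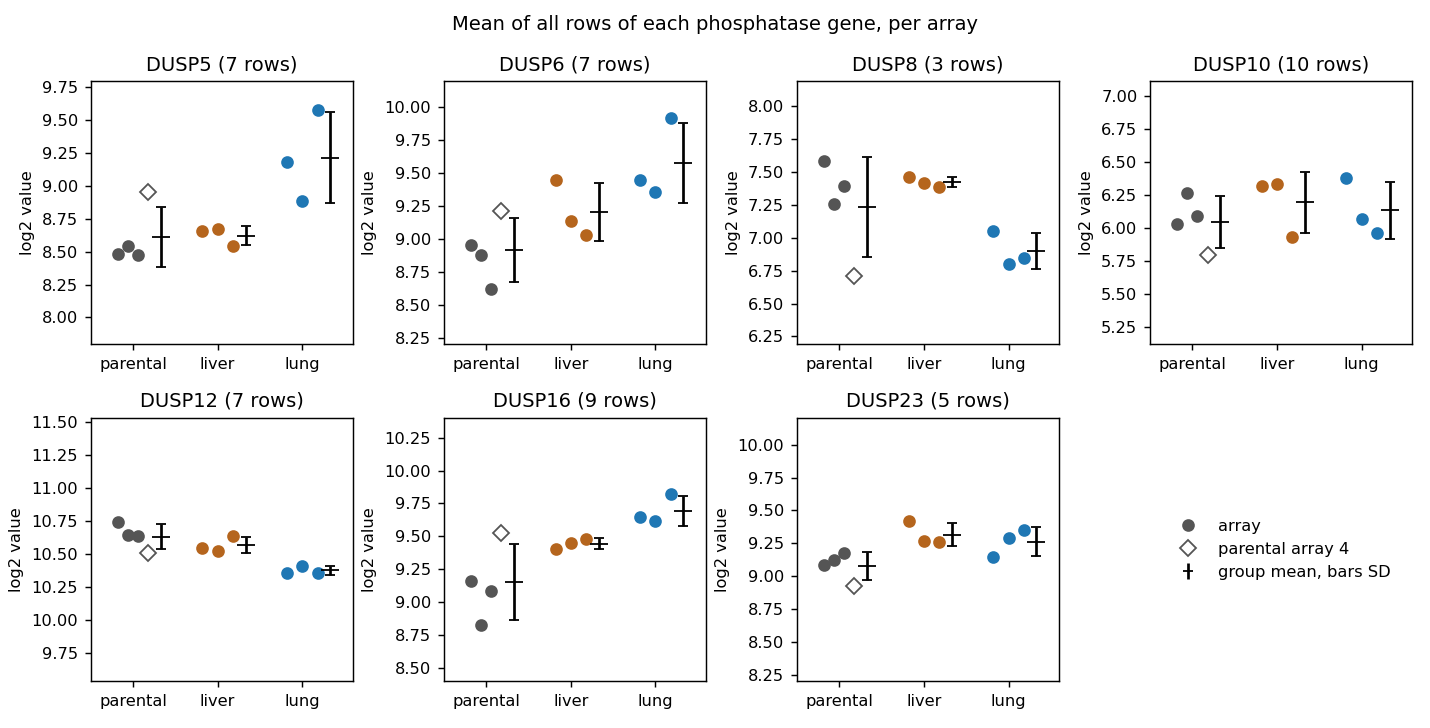
Mean log2 value of all rows of each of the 7 genes (y axis, each panel spanning 2 log2 units) in each array, by group (x axis), with group means and SD bars to the right of the points and parental array 4 as an open diamond. The group means of DUSP5, DUSP6 and DUSP16 are highest in lung, and parental array 4 lies above the other parental arrays in each of them, at 8.95, 9.21 and 9.53.

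The 250 bases before the start sites of DUSP6 and DUSP16 are shown because these 2 genes of chromosome 12 were both higher in lung derivatives. They come from RefSeq (GRCh38.p14, both genes on the minus strand), with every match to GGAA or its reverse TTCC, the core of sites for ETS transcription factors, in capitals. The windows are chr12:89352502-89352751 for DUSP6 and chr12:12562864-12563113 for DUSP16.
DUSP6: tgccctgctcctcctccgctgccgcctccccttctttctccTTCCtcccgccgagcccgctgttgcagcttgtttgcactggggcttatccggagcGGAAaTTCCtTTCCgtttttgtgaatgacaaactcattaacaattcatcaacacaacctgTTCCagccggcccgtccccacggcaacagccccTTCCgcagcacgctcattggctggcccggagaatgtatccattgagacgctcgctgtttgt
DUSP16: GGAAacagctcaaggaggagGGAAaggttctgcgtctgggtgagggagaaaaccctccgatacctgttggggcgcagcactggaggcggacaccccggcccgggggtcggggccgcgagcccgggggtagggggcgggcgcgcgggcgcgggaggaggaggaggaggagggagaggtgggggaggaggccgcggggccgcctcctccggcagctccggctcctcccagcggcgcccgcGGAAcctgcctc

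The DUSP6 window holds 6 such cores and the DUSP16 window 3. Both strands were searched, no 2 matches overlap, and 92.7% of the 35116 RefSeq windows of this length hold at least 1, so the match by itself is common. Neither window holds TGANTCA, the AP-1 motif through which JUN proteins bind, which is found in 6.57% of windows, nor TGACGTCA, the cAMP response element, found in 1.65%. RefSeq entries were matched for 5 of the 7 genes. DUSP8 has 2 matches to TGACGTCA and 1 ETS core, DUSP23 has 7 ETS cores, and the 2 start sites of DUSP10 have 2 and 0. DUSP5 and DUSP12 were not matched. A match is a description of the letters and not a measured site.

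DUSP6 is a cytoplasmic phosphatase specific for ERK and a transcriptional target of that pathway. By the mean of its 7 rows it stood at 8.95, 8.88, 8.62 and 9.21 in parental arrays 1 to 4, at 9.45, 9.14 and 9.03 in the liver arrays, and at 9.45, 9.36 and 9.92 in the lung arrays. All 3 lung arrays lay above all 4 parental arrays, while the liver arrays overlapped both groups. DUSP6 was 1.58-fold higher in lung than in parental cells (0.66 on the log2 scale, SE 0.16, adjusted p = 0.0135 with limma; 9.58 ± 0.30 against 8.92 ± 0.24, SD, n = 3 and 4). The liver change was 0.29 (SE 0.16, adjusted p = 0.412), and lung and liver differed by 0.37 (SE 0.17, adjusted p = 0.141).

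Among the 7 rows of DUSP6, 4 were called higher in lung derivatives, where 13.1% of all rows were called (5.15% of all rows as higher). The changes of the called rows were 1.07 in row 7965336, 1.01 in 7965337, 0.85 in 7965339 and 0.83 in 7965342. The brightest row, 7965338, had a difference of 0.59 (SE 0.21, adjusted p = 0.0973) and was not called, and row 7965341 stood at -0.08. Row 7965337 read 9.91, 10.04, 9.63 and 10.62 in parental arrays, 10.43, 10.27 and 10.03 in liver arrays, and 11.03, 10.76 and 11.38 in lung arrays, with parental array 4 the nearest to the lung group. Lung array 3 was the highest of all 10 arrays in 6 of the 7 rows. Against parental array 4 alone the change of the mean of all rows was 0.36 (SE 0.22, adjusted p = 0.350). In liver derivatives all 7 rows lay above the parental mean, by 0.14 to 0.43, and 0 were called.

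DUSP5, the nuclear ERK phosphatase, was also higher in lung derivatives by the mean of its rows. It read 8.48, 8.54, 8.48 and 8.95 in parental arrays, 8.65, 8.67 and 8.54 in liver arrays, and 9.18, 8.88 and 9.57 in lung arrays. Lung array 2 lay below parental array 4, so the groups overlapped. The change was 0.60 (SE 0.15, adjusted p = 0.0162 with limma; 9.21 ± 0.35 against 8.61 ± 0.23, SD, n = 3 and 4), a fold of 1.52. Without lung array 3 it was 0.42 (adjusted p = 0.0509), so the call rested on that array. Against parental array 4 alone it was 0.26 (SE 0.20, adjusted p = 0.442). The liver value was 0.01 (SE 0.15), and DUSP5 was higher in lung than in liver by 0.59 (SE 0.17, adjusted p = 0.0317), where 19.9% of all genes were called, 8.04% as higher and 11.8% as lower. With the array set in the model this difference was 0.14 (adjusted p = 0.872), where 0.0846% of all genes were called. The call was also lost without liver array 1, 2 or 3, lung array 1 or lung array 3 (0.41 to 0.62, adjusted p from 0.0742 to 0.0949).

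The rows of DUSP5 did not move alike. The brightest row, 7930415, had a difference of -0.01 (SE 0.18) in lung derivatives, while row 7930421 had a difference of 1.37 (SE 0.44, adjusted p = 0.0676) and row 7930418 one of 0.97 (SE 0.31, adjusted p = 0.0703), and 0 of the 7 rows were called. Row 7930421 read 8.43, 8.57 and 8.20 in parental arrays 1 to 3 and 10.16 in parental array 4. In liver arrays it read 8.43, 8.74 and 8.34, and in lung arrays 10.55, 9.64 and 10.43. Parental array 4 thus lay within the range of the lung arrays and 1.76 above the mean of the other parental arrays in this row. Rows 7930418, 7930419 and 7930420 were highest in lung array 3, at 10.81, 8.97 and 8.61, while the other arrays stayed at or below 9.78, 7.83 and 7.79. Between lung and liver, rows 7930417 (0.54, adjusted p = 0.0260) and 7930421 (1.70, adjusted p = 0.0452) were called higher, with 12.6% of all rows called, 5.02% as higher and 7.61% as lower.

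**Figure D2:**
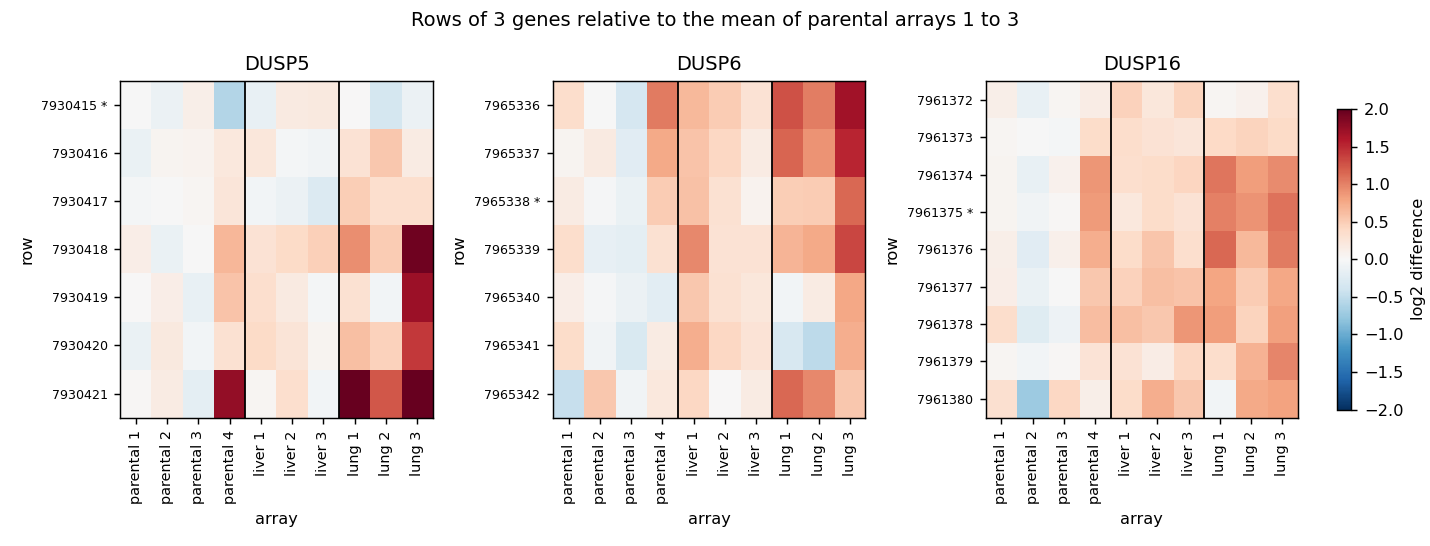
Log2 value of each row (y axis) of DUSP5, DUSP6 and DUSP16 in each array (x axis) minus the mean of parental arrays 1 to 3, in colour from -2 to 2 (larger values take the end colour), with lines between groups and a star at the brightest row. In DUSP16 most rows are raised in parental array 4 and the lung arrays, in DUSP6 row 7965337 is raised in the lung arrays, and in DUSP5 4 of the 7 rows carry the high values of lung array 3 or parental array 4.

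DUSP16 dephosphorylates JNK and p38 and shuttles between nucleus and cytoplasm. It was the member whose rows agreed most: the median correlation between its 9 rows over the 10 arrays was 0.73, against 0.59 in DUSP5, 0.57 in DUSP6, 0.29 in DUSP12, 0.23 in DUSP23, 0.12 in DUSP10 and -0.29 in DUSP8, and a median of 0.13 over the 4163 genes with at least 3 rows. These correlations share the arrays and their division into sets. The mean of its rows was 9.16, 8.83, 9.08 and 9.53 in parental arrays, 9.41, 9.45 and 9.48 in liver arrays and 9.64, 9.61 and 9.82 in lung arrays. The lung arrays lay above all parental and liver arrays, and the liver arrays lay above parental arrays 1 to 3 but below parental array 4.

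By that mean DUSP16 was 1.46-fold higher in lung than in parental cells (0.54, SE 0.13, adjusted p = 0.0122 with limma; 9.69 ± 0.11 against 9.15 ± 0.29, SD, n = 3 and 4). Against parental array 4 alone the difference was 0.17 (SE 0.13, adjusted p = 0.453). The liver change was 0.30 (SE 0.13, adjusted p = 0.255) against all parental arrays and 0.42 (SE 0.09, adjusted p = 0.0152) against parental arrays 1 to 3, which is what the set term compares, where 8.86% of all genes were called. Lung and liver differed by 0.25 (SE 0.14, adjusted p = 0.216), and by -0.26 (SE 0.16) with the set as a term.

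All 9 rows of DUSP16 lay above the parental mean in both derivatives, by 0.12 to 0.78 in lung and 0.07 to 0.52 in liver. In lung derivatives 3 were called: 7961375, the brightest (0.78, SE 0.21), 7961376 (0.76, SE 0.21) and 7961379 (0.61, SE 0.16), where 5.15% of all rows were called higher. The brightest row read 10.52, 10.40, 10.49 and 11.33 in parental arrays, 10.69, 10.83 and 10.76 in liver arrays, and 11.47, 11.37 and 11.56 in lung arrays. Parental array 4 lay just below the lowest lung array and well above the other parental arrays. The adjusted p of this row was 0.0389, and between 0.0701 and 0.102 when parental array 1, 2 or 3 or any lung array was left out. In 8 of the 9 rows parental array 4 was above the other 3 parental arrays, which held for 35.0% of all tested rows.

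The genes whose brightest row ran most like that of DUSP16 over the 10 arrays, among 4726 others, were CD59, a membrane inhibitor of complement (Pearson r = 0.98), and SLC2A14, a glucose transporter gene (r = 0.98). Their lung values minus parental were 0.42 for CD59 and 1.22 for SLC2A14. All these points share the array sets, so likeness here includes the step between the sets.

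DUSP12, an atypical phosphatase with a zinc-binding domain, was lower in lung derivatives. The mean of its 7 rows was 10.74, 10.64, 10.63 and 10.51 in parental arrays, 10.55, 10.52 and 10.64 in liver arrays and 10.36, 10.41 and 10.36 in lung arrays. All lung arrays lay below all parental and liver arrays. The change was small, -0.26 (SE 0.07, adjusted p = 0.0167 with limma; 10.37 ± 0.03 against 10.63 ± 0.10, SD, n = 3 and 4). Against parental array 4 alone it was -0.13 (SE 0.08, adjusted p = 0.350). The call was lost after quantile normalization (-0.18, adjusted p = 0.0560) and without lung array 1 (-0.25, adjusted p = 0.0539). Rows 7906813 (-0.51, SE 0.13, adjusted p = 0.0366) and 7906814 (-0.52, SE 0.14, adjusted p = 0.0417) were called lower, where 7.99% of all rows were, and the brightest row, 7906818, had a difference of -0.29 (adjusted p = 0.176). Row 7906813 was also lower in lung than in liver (-0.58, adjusted p = 0.0342). In liver derivatives the mean had a difference of -0.06 (SE 0.07).

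DUSP23 is a small phosphatase made of little more than its catalytic domain. Its 5 rows gave different answers. The brightest, 7906472, read 11.10, 11.09, 11.30 and 11.30 in parental arrays, 11.35, 11.32 and 11.26 in liver arrays and 11.71, 11.78 and 11.52 in lung arrays. Here the lung arrays lay above all others and parental array 4 was level with parental array 3. The row was 1.39-fold higher in lung than in parental cells (0.48, SE 0.10, adjusted p = 0.0230 with limma), and 0.37 (SE 0.15, adjusted p = 0.266) above parental array 4. That call was lost, at adjusted p of 0.0630 to 0.0683, without parental array 1 or 2 or lung array 1 or 2. The other 4 rows had a difference of -0.02 to 0.37 with 0 called, and the mean of all rows one of 0.19 (SE 0.08, adjusted p = 0.0997). In liver derivatives all 5 rows lay above the parental mean, by 0.05 to 0.42, and the mean of all rows was 0.24 higher (SE 0.08, adjusted p = 0.117), with every liver array above every parental array. The genes most like its brightest row over the 10 arrays were C11orf52 (r = 0.99) and PXMP2 (r = 0.98), the latter a membrane protein of peroxisomes.

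DUSP8 and DUSP10, phosphatases of JNK and p38, were not called in any row. The 3 rows of DUSP8 had a difference of 0.14 (7945643, the brightest), -0.16 and -0.99 in lung derivatives. By their mean DUSP8 read 7.59, 7.26, 7.40 and 6.71 in parental arrays, 7.46, 7.42 and 7.39 in liver arrays and 7.05, 6.80 and 6.84 in lung arrays. The lung arrays lay below the liver arrays and below parental arrays 1 to 3, and parental array 4 was the lowest of all. The lung change was -0.34 (SE 0.17, adjusted p = 0.143 with limma) against all parental arrays and -0.51 (adjusted p = 0.00224) without parental array 4. It stayed negative when any single array was left out (-0.51 to -0.22). Against parental array 4 alone it was 0.19 (SE 0.13), so its sign turned where that array was the sole reference. The dimmest row, 7945644, had the widest spread, with 6.47, 5.75, 5.93 and 4.29 in parental arrays and 5.07, 3.96 and 4.82 in lung arrays.

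DUSP10 was dim. All its 10 rows had a mean log2 value between 4.75 and 6.83, below 6.98, the value under which 25% of tested rows lie. By the mean of its rows it ranged from 5.79 to 6.27 in parental, from 5.93 to 6.33 in liver and from 5.96 to 6.38 in lung arrays, which overlapped throughout. The changes were 0.15 (SE 0.14) in liver and 0.09 (SE 0.14) in lung derivatives. Single rows had a difference of -0.57 to 0.52 in lung derivatives.

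Of the 48 rows together, lung derivatives had 10 calls, 8 upward and 2 downward, which is 20.8% beside 13.1% of all tested rows, and 20 rows had an unadjusted p under 0.05, beside 32.0% of all rows. The median change was 0.32 against -0.03 over all tested rows, and by 1 brightest row per gene it was 0.14 against 0.07. In liver derivatives the median was 0.19 against 0.01 over all rows. Between lung and liver 3 rows were called, 2 of DUSP5 and 1 of DUSP12, or 6.25% beside 12.6% of all rows, and 16 had an unadjusted p under 0.05, beside 33.4%. Lung and parental arrays did not overlap in 12 rows, 9 higher and 3 lower, where 9.31% and 14.3% of all rows did not overlap in these directions. Liver and parental arrays did not overlap in 5 rows, 4 higher and 1 lower, against 8.59% and 7.56% of all rows. Lung and liver arrays did not overlap in 19 rows, 13 higher and 6 lower, against 18.1% and 24.2% of all rows. Leaving out parental array 1 brought the called rows of the lung comparison to 0, parental array 2 or 3 or lung array 1 to 1, lung array 3 to 3 and lung array 2 to 4, while leaving out parental array 4 brought them to 21. The shares of all rows called without these arrays are not given, so these counts have no background beside them. With the set as a term 0 rows were called in lung derivatives (5 at an unadjusted p under 0.05; 1.12% of all rows called), 0 in liver derivatives (7 unadjusted; 2.57% of all rows) and 0 between lung and liver (2 unadjusted; 0.0632% of all rows). These shares are of adjusted calls, and no share of all rows is given for the unadjusted counts with the term. The 7 unadjusted liver rows were all of DUSP16. In the lung comparison 34 of the 48 rows without the term and 39 with it lay above 0.

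**Figure D3:**
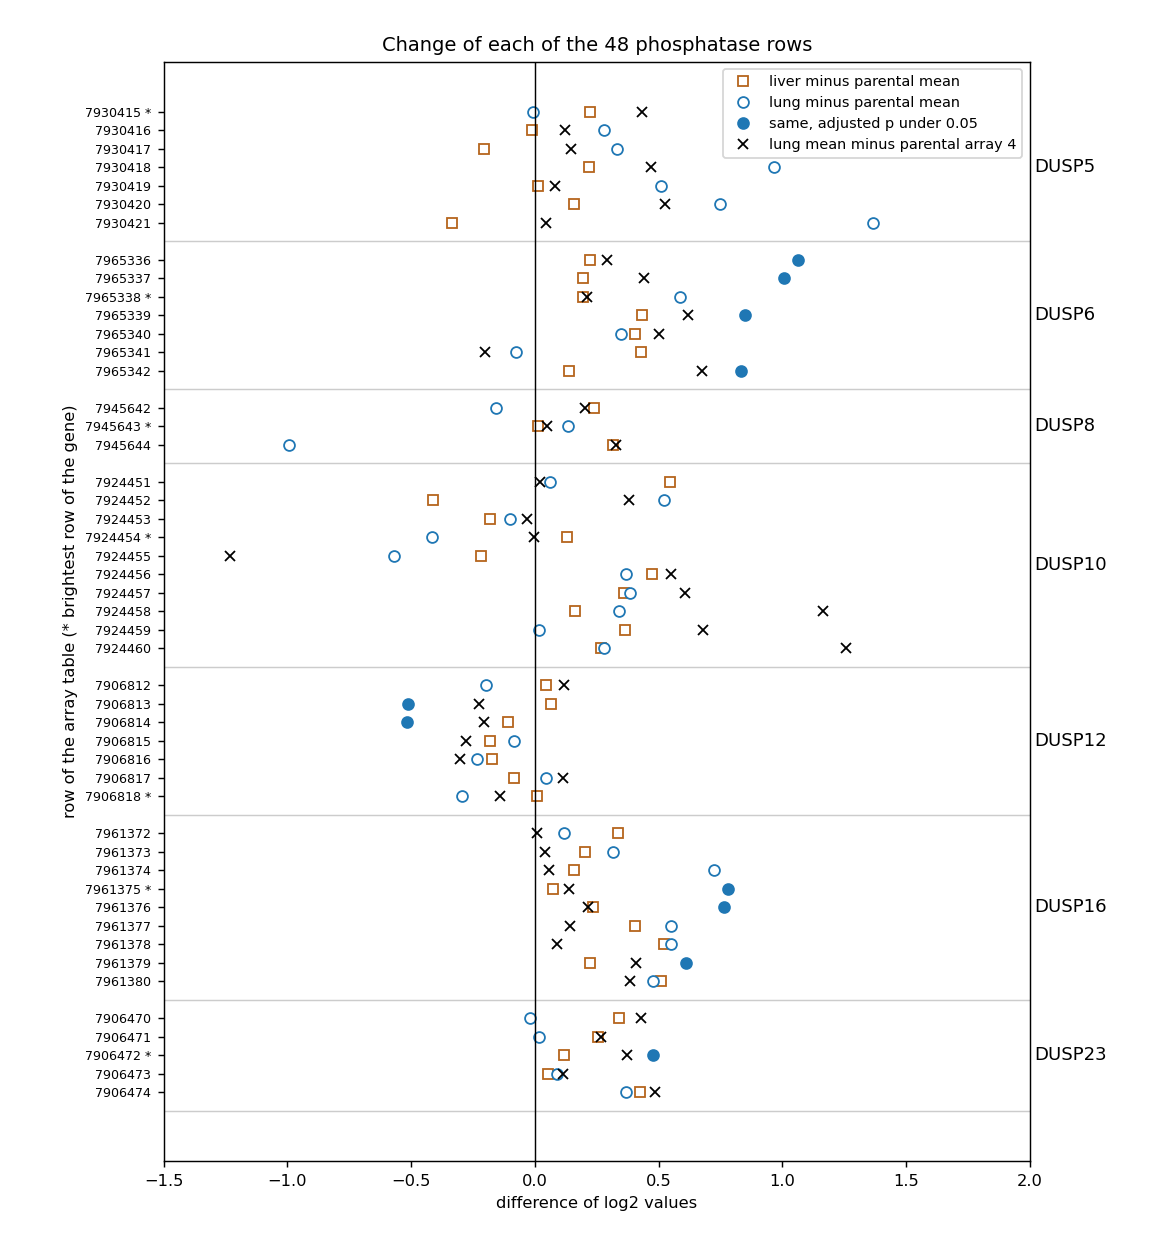
Difference of log2 values (x axis) for each of the 48 rows (y axis, grouped by gene) as liver minus parental mean (squares), lung minus parental mean (circles, filled where the adjusted p was under 0.05) and lung mean minus parental array 4 (crosses). The crosses of DUSP16 lie between 0.01 and 0.41 where its circles lie between 0.12 and 0.78, and the filled circles fall on DUSP6, DUSP12, DUSP16 and DUSP23.

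The rest of the pathway was read from 5 gene lists, by the brightest row of each gene and by the mean of all its rows. Over all genes, brightest rows were called in 2.12% of genes in liver derivatives, 13.7% in lung derivatives and 13.8% between lung and liver, and the means of all rows in 7.79%, 30.1% and 19.9%. Genes named below only by their mean of all rows were chosen after their values were seen.

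Of 3 measured tyrosine phosphatases that also act on MAP kinases, 0 were called against parental cells by either measure. PTPN7 exceeded its liver level in lung derivatives by 1.23 in its brightest row (SE 0.34, adjusted p = 0.0471 with limma), with 10.45, 10.23 and 9.39 in lung arrays, 8.78, 8.65 and 8.97 in liver arrays and 8.58 to 9.77 in parental arrays. By the mean of its 17 rows the difference was 0.11 (adjusted p = 0.352), and in the brightest row it was 0.55 with the set as a term. Of 7 further small or related phosphatases 0 were called against parental cells by brightest row and 1 by the mean of all rows. That gene was CDC14A, a phosphatase of cyclin-dependent kinase substrates, which was lower in liver derivatives by the mean of its 20 rows (-0.65, SE 0.09, adjusted p = 0.000868; -0.58, adjusted p = 0.000450, with the set term). In its brightest row lung stood 0.52 above liver (SE 0.13, adjusted p = 0.0363), or 0.23 once the array set was in the model, and the differences from parental were 0.06 in lung and -0.46 in liver.

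Of 9 genes of the RAS and ERK module 0 were called in any of the 3 comparisons by brightest row, with lung differences from -0.33 to 0.18. By the mean of all rows 2 were lower in lung and 1 in liver derivatives. RASSF5, a RAS-binding protein, was lower in lung (-0.43, adjusted p = 0.00332 with limma) and in liver (-0.33, adjusted p = 0.0234). SHOC2, a scaffold that promotes RAF activation, was lower in lung (-0.21, adjusted p = 0.0472). With the set as a term these lung means were -0.47 in RASSF5 and -0.32 in SHOC2. Of 10 genes of the JNK and p38 module 1 was lower in lung derivatives by brightest row and 4 by the mean of all rows. The kinase MAP3K6 was lower by both measures, by -0.62 in its brightest row (SE 0.14, adjusted p = 0.0233 with limma) and -0.23 by the mean of all rows (adjusted p = 0.0409). With the set as a term its brightest-row difference was -0.43. Its brightest row was also lower in lung than in liver (-0.67, adjusted p = 0.0272), where the mean of all rows gave -0.12 (adjusted p = 0.280).

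The other 3 genes of this module called by the mean of all rows in lung derivatives were MAPK8, MAP3K12 and MAPKAPK5. MAPK8, which encodes JNK1, was lower in lung (-0.22, adjusted p = 0.0346) and in liver derivatives (-0.26, adjusted p = 0.0410) by the mean of its 15 rows. Its brightest row gave 0.15 in lung and -0.14 in liver and was not called, so the lung sign depended on the measure. MAP3K12, a kinase upstream of JNK, stood at -0.26 (adjusted p = 0.00930 with limma) and MAPKAPK5, a kinase downstream of p38, at -0.29 (adjusted p = 0.0121). With the set as a term the lung means of all rows were -0.24 in MAPK8, -0.35 in MAP3K12 and -0.14 in MAPKAPK5. MAPKAPK2, also downstream of p38, was chosen after its values were seen. Its brightest-row difference in lung was 0.00 against all parental arrays and 0.87 with the set as a term. In that row parental array 4 read 11.74 where the other parental arrays read 12.85 to 12.93. By the mean of its 13 rows the difference was -0.18 (adjusted p = 0.0613 with limma), and -0.05 with the set as a term, so the 2 measures did not match.

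Among 14 ERK feedback and early response genes 1 was higher and 2 were lower in lung derivatives by brightest row, and 1 was higher and 1 lower in liver derivatives. By the mean of all rows 2 were higher and 3 lower in lung, and 1 higher and 3 lower in liver. JUN, a substrate of JNK and part of AP-1, was lower in both derivatives by both measures, with brightest-row differences of -1.08 in lung (SE 0.12, adjusted p = 0.00191) and -0.82 in liver (SE 0.12, adjusted p = 0.00751) and means of all rows of -0.64 and -0.48. With the set as a term the lung difference of JUN was -0.82 in its brightest row and -0.37 by the mean of all rows. The transcription factor EGR2, induced by ERK signalling, was higher in lung by both measures. Its brightest row gave 1.76 (SE 0.28, adjusted p = 0.00768 with limma) and the mean of all rows 1.29 (adjusted p = 0.000993). With the set as a term the brightest-row difference of EGR2 in lung was 1.55. In liver its brightest row was higher (1.49, SE 0.28, adjusted p = 0.0261), while the mean of all rows gave 0.62 (adjusted p = 0.0732). ERRFI1, a feedback inhibitor of the EGF receptor, was lower in lung derivatives in its brightest row alone. The differences were -0.39 against parental cells (SE 0.09, adjusted p = 0.0282 with limma) and -0.63 against liver (adjusted p = 0.0191). With the set as a term the difference of this row from parental cells was -0.40. The mean of all rows of ERRFI1 gave -0.21 against parental cells (adjusted p = 0.0908 with limma) and -0.11 against liver (adjusted p = 0.421). The median lung difference of the list by brightest row was -0.11, beside 0.07 over all genes. The liver and lung comparisons share the parental arrays.

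**Figure D4:**
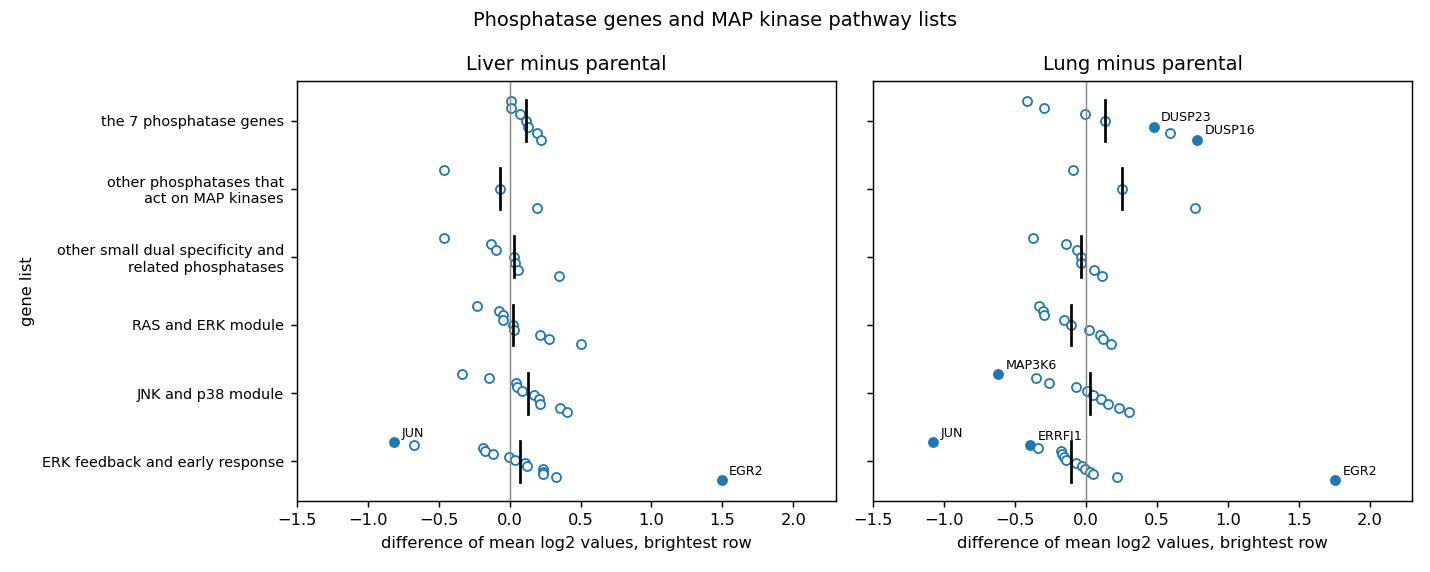
Difference of mean log2 values of the brightest row of each gene (x axis) for the 7 phosphatase genes and the 5 pathway lists (y axis), liver minus parental on the left and lung minus parental on the right, with filled and named points at an adjusted p under 0.05 and a bar at the median of each list. DUSP16 (0.78) and DUSP23 (0.48) are the named points of the phosphatase group in the lung panel, which has 0 in the liver panel.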

How the data were processed

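The deposited values are log2 expression values, made by the authors with RMA in oligo (an R package), as the submitters' processing notes state; versions, summary level and genome build are not given in the sources used here. Values ran from 2.55 to 13.99 and array medians over tested rows from 8.62 to 8.72, so no log was taken. RMA places arrays on 1 distribution, so a change in total RNA cannot be seen. Gene names come from the platform annotation: 54806 rows list 1 symbol, 2143 several (tested, not named) and 8586 none (not tested).

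Groups follow the sample titles. Rows were fitted with limma 3.58.1 (R 4.3.3), 1 coefficient per group over all 10 arrays, two-sided eBayes and Benjamini-Hochberg adjustment over 56949 rows; means of all rows of a gene were fitted likewise over 4727 genes. Fits were tested on simulated data. Named genes are the 7 members and at most 5 genes per pathway list and comparison whose brightest row was called. The 2 genes most correlated with each member whose brightest row was called are also named. Pathway genes called only by the mean of all rows, MAPKAPK2 and the cell type markers were named outside these rules, after their values were seen. The members and lists were chosen with earlier results of these data known, as was the array set. Alternatives were the set term, replicate block, 2-group fits, quantile normalization, median centring, a filter that removed rows whose mean lay below the 25th percentile in every group (44737 rows kept, so a row can pass through 1 bright group), all rows, a variance trend and leaving out arrays; the gene-mean versions of these were added after seeing the data. The number of arrays limits the precision.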

Additional observations from a re-analysis of the deposited data

Results flagged for a closer look

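Parental array 4 stood apart from the other parental arrays in 2 of 14 checks, each on 4 values, where chance marks about 1 in 20. In the brightest row of DUSP16 it read 11.33 against 10.52 in the nearest parental array. In the mean of all rows of DUSP5 it read 8.95 against 8.54.

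The effect on DUSP5 differed between the derivatives by the test of that difference: lung exceeded liver by 0.59 in the mean of all its rows (SE 0.17, adjusted p = 0.0317 with limma), and by 0.14 with the array set in the model.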

How the results depend on the processing

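With the set term the lung comparison rests on 1 parental array of the lung set, and low signal limits DUSP10 and the dimmest row of DUSP8. Same-numbered arrays did not deviate together (correlations from -0.12 to 0.04, 0 of 9 arrays correlating best with their own number), so the numbers do not pair the samples.

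The called rows, 0 in liver, 10 in lung and 3 between lung and liver, became 0, 0 and 0 with the set as a term. With the replicate block they became 0, 17 and 7, beside 1.38%, 21.8% and 17.6% of all rows. Parental array 4 is the only array numbered 4, so this block takes it out of the comparisons with parental cells. The block value of the brightest row of DUSP16 in lung, 0.997, is the difference from parental arrays 1 to 3. With only the 2 groups compared they became 0, 0 and 8. Between lung and liver they became 5 after quantile normalization, 6 without dim rows and 6 with a variance trend. Leaving out single arrays gave 0 to 21 rows in lung and 0 to 3 between lung and liver. Genes called by the mean of all rows (0, 4 and 1) became 1, 0 and 0 with the set term, and 1, 5 and 2 with the replicate block. Leaving out single arrays gave 0 to 1 in liver, 3 to 5 in lung and 0 to 1 between lung and liver. Apart from the set term and, for rows, the replicate block, the shares over all rows or genes are not given for these settings. Those counts therefore have no background beside them. The counts under the other settings stayed within 1.5 times; a count of rows by the mean of all rows was not run, since that setting counts genes.

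Changes that turned sign by the mean of all rows in place of the brightest were DUSP12 in liver (-0.062), DUSP5 (0.60), DUSP8 (-0.34) and DUSP10 (0.089) in lung, and DUSP5 (0.59), DUSP8 (-0.53) and DUSP23 (-0.053) between lung and liver. With the set term the brightest rows turned in DUSP10 (-0.0068) and DUSP12 (-0.042) in liver, DUSP5 in lung (0.43), and DUSP5 (0.35), DUSP6 (-0.11), DUSP10 (0.0021) and DUSP16 (-0.15) between lung and liver. The means of all rows turned in DUSP8 in lung (0.19), and in DUSP6 (-0.025), DUSP8 (0.18), DUSP10 (0.27), DUSP16 (-0.26) and DUSP23 (0.14) between lung and liver. The replicate block turned DUSP10 (-0.0068) and DUSP12 (-0.042) in liver. Quantile normalization turned DUSP12 in liver (-0.012) and DUSP5 in lung (0.075), and median centring DUSP5 in lung (0.044). The causes were not tested.

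Leaving out single arrays turned brightest rows in liver, with ranges of -0.050 to 0.061 in DUSP8, -0.0068 to 0.22 in DUSP10, -0.097 to 0.10 in DUSP12 and -0.020 to 0.29 in DUSP16, and in lung of -0.15 to 0.093 in DUSP5. It turned means of all rows of DUSP5 in liver (-0.037 to 0.12), DUSP10 in lung (-0.033 to 0.18), and DUSP10 (-0.19 to 0.027) and DUSP23 (-0.098 to 0.0073) between lung and liver.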
